A study of Homo sapiens with 9 samples.

Results

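In 10 protein-coding genes most small RNA reads fell on a single position, and these genes are CNOT1, EIF2AK3, KISS1R, ZMYM2, NCKAP5, GYS1, IRGQ, MRPS16, ELF4 and RAP1A. They make up 10 of 20176 annotated protein-coding genes and were picked by name for their high number of sense reads in exons, so that their read numbers and the height of their peaks are a description and not a finding. Their sense alignments within the gene bounds number 1578 of 3688019 alignments in all. By reads in exons they ranked from 7 (CNOT1) to 74 (ELF4), and by reads of the whole gene from 29 (CNOT1) to 533 (MRPS16).

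Small RNA was sequenced from 3 batches of K562 cells, a chronic myelogenous leukemia line with erythroid features that carries the BCR-ABL1 fusion. The cells were untreated, and the authors pooled the batches into 1 set of values, so no value below has a replicate error. The other 6 samples of the study, from transfected HEK293 cells, were not used here. Reads here are recovered reads, meaning the deposited count of an alignment divided by the number of near-identical alignments that it had been multiplied with, and they sum to 47670688. The 10 genes held 99225 of them (0.208%), of which CNOT1 alone held 79.6%. Intervals are 95% Wilson intervals of a share and cover counting error only. Of the genes that mark K562 cells, HBG2 had 1547 reads and HBZ 43, whereas markers of other cells had between 4 (CD3E) and 466 (EPCAM), and small RNA reads in a gene are not a measure of its mRNA.

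Small RNAs that fall inside an mRNA can have several origins. Some are degradation products of the message, with ends at many positions, whereas enzymes that process RNA at fixed sites leave reads with the same ends. C/D box small nucleolar RNAs (snoRNAs) guide the methylation of ribosomal RNA, carry a C box with the core letters TGATG near the 5′ end and a D box, CTGA, near the 3′ end, and keep only a few bases outside of these boxes. Most of them are cut from introns. Transfer RNAs (tRNAs) receive the letters CCA at their 3′ end from an enzyme, since human tRNA genes do not encode them, and 3′ fragments of tRNAs therefore end in CCA. A short read of a repeated sequence can also align to places from which it was not transcribed, particularly when the aligner allows mismatches.

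The sequences on which the results turn are printed as the reference bases of GRCh37 at the most abundant alignment of each gene (the top position), 5′ to 3′ on the strand of the gene. In the first set, capitals mark ATGATG and CTGA, and for ZMYM2 the first 30 of the 31 bases are shown.
EIF2AK3: agatATGATGattttgaaaCTGAtt
MRPS16: atcctATGATGatcacaaatgCTGAga
ZMYM2: gtgaATGATGgccaattagaaaataCTGAc
In the next set, capitals mark the CCA at the 3′ end. SMARCC1, TUBA1C and VPS13D are other genes in which bases like those of GYS1 and ELF4 hold reads.
GYS1: tccccagtatctccaCCA
ELF4: tccccactacctccaCCA
SMARCC1: tccccagcacctccaCCA
TUBA1C: tccccagttcctccaCCA
VPS13D: tgcccagtacctccaCCA
The bases of IRGQ and RAP1A are shown with 4 flanking bases in capitals on each side, because the lower-case bases are identical.
IRGQ: GGTGctggaggaggcgccgccgccAGTG
RAP1A: CGTTctggaggaggcgccgccgccGCTC
For CNOT1, capitals mark the bases that differ from a second place, on chromosome 1, and the bases of KISS1R follow.
CNOT1: CggacttgtctcaggtgT
Second place: GggacttgtctcaggtgA
KISS1R: tgtggcgccaacgcctcggacgg

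The share of the sense reads of a gene that overlap its top position, called the peak, had a median of 94.1% over the 10 genes, against 28.7% (quartiles 14.7% and 54.2%) over the other protein-coding genes with at least 100 reads. The peak held at least 50% of the reads in 10 of 10 genes, whereas it did in 28.2% of 7778 protein-coding genes with at least 100 reads, in 62.1% of 849 with at least 1000 reads and in 21.4% of those with at least 10 reads. Since the genes were chosen for such peaks, nothing is read from this difference. The peak shares were lowest in ELF4 (57.5%), NCKAP5 (70.5%) and RAP1A (81.1%), and were over 90% in the other 7. With the most abundant alignment alone in place of all forms of the peak, the share was at least 50% in 5 genes, from 34.0% in IRGQ to 83.9% in MRPS16.

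**Figure D1:**
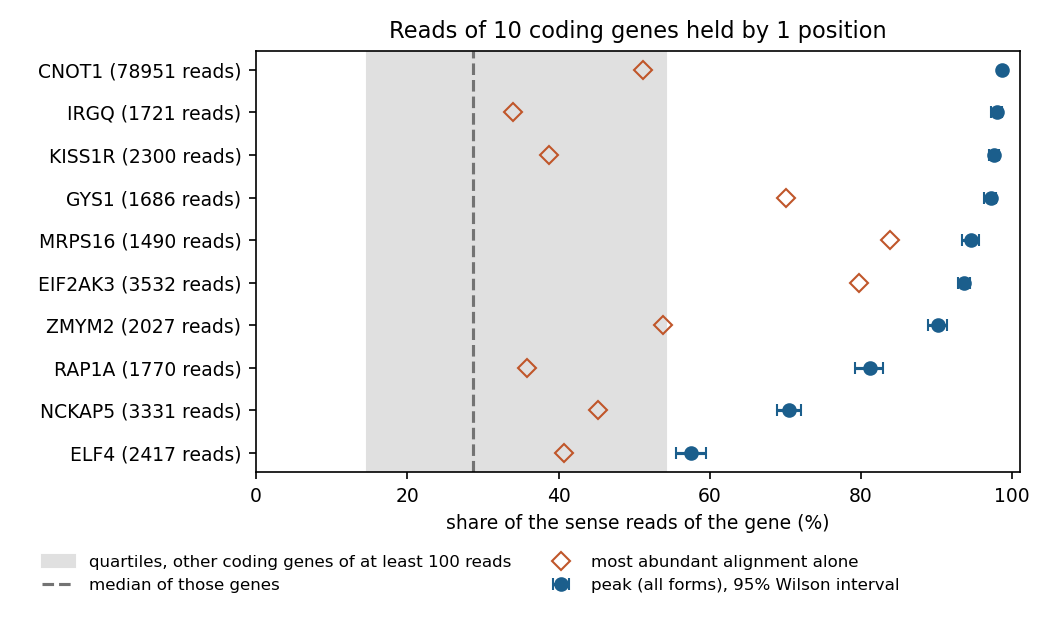
Share (%) of the sense reads of each of the 10 genes that lies in the peak (filled circles, with 95% Wilson intervals) and in the most abundant alignment alone (open diamonds), with the median and quartiles of the other protein-coding genes of at least 100 reads. The circles run from 57.5% in ELF4 to 98.7% in CNOT1, and the diamonds from 34.0% in IRGQ to 83.9% in MRPS16.

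The top position lay in an exon of the gene in all 10 cases, when every transcript of GENCODE release 44 was counted. Since the genes were picked for reads in exons, an exonic position was largely set by that choice. The share of exonic positions over other genes was not counted. It was in the coding sequence (CDS) of 7 genes, in the 3′ UTR of EIF2AK3 and of a non-canonical transcript of NCKAP5, and in the 5′ UTR of a transcript of RAP1A. With basic transcripts only, the position in NCKAP5 was intronic and 9 were exonic. No miRNA, snoRNA or other small RNA gene annotated in GENCODE overlapped any of the 10 positions on either strand or lay within 50 nt on the same strand. Nuclear tRNA genes and piRNAs were not among the classes searched, and the share over other genes was not counted. None of the 10 sequences is contained in the 2545 mature miRNAs or 1562 hairpins of RefSeq. CNOT1 carries 2 annotated snoRNAs in its introns, SNORA50 with 643 reads and SNORA46 with 50, and both together made up 0.878% of its reads.

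Ends within the peaks were sharp on the 5′ side. In 10 of 10 genes a single 5′ end held at least 50% of the peak reads, as it did in 96.5% of protein-coding genes with at least 1000 reads and in 94% of those with at least 100, so this does not set the 10 genes apart. A single 3′ end did so in 7 of 10, against 89.3% of genes with at least 1000 reads and 91.4% of those with at least 100, and the exceptions were KISS1R (39.7%), IRGQ (43.7%) and RAP1A (45.8%). Allowing 1 nt on each side of the most frequent 3′ end brought all 10 above 50%.

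EIF2AK3 encodes PERK, the endoplasmic reticulum kinase that phosphorylates eIF2alpha in the unfolded protein response. Its top position was chr2:88856827-88856851 on the minus strand, 25 nt long, in the last of 17 exons and 406 nt after the stop codon. Of 3532 gene reads, 3308 lay in the peak (93.7%, interval 92.8% to 94.4%), and the top alignment alone had 2818 reads. The form with 1 more base at the 5′ end had 399 reads, and no other form had more than 28. One 5′ end held 86.5% of the peak reads and one 3′ end 97.6%, so that the reads varied at the 5′ side more than at the 3′ side. A lncRNA is annotated on the other strand, where no read overlapped the position.

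MRPS16 encodes a protein of the small subunit of the mitochondrial ribosome. Its top position was chr10:75010699-75010725 on the minus strand, 27 nt long, in the CDS of the last of 3 exons, 24 nt after the start of the exon. The peak held 1409 of 1490 reads (94.6%, interval 93.3% to 95.6%), and the top alignment 1250 reads. The next form, 1 base shorter at the 5′ end, had 95 reads. The 5′ end held 92.6% and the 3′ end 95.7% of the peak reads, and the forms beside it were each under 7% of the peak.

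ZMYM2 encodes a zinc finger protein found in complexes of the histone demethylase LSD1 with CoREST. Its top position was chr13:20567801-20567831 on the plus strand, 31 nt long and the longest of the 10, in the CDS of exon 3 of 25. The peak held 1828 of 2027 reads (90.2%, interval 88.8% to 91.4%). The top alignment had 1091 reads, and a form with 1 more base at the 5′ end had 647. The 3′ end was shared by 96.0% of the peak reads, whereas the most frequent 5′ end held 61.7% and 99.1% of reads started within 1 nt of it.

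The top sequences of EIF2AK3, MRPS16 and ZMYM2 were the only ones among the 10 that hold ATGATG followed by CTGA, as printed above, with both motifs read on the strand of the gene only. Apart from KISS1R with 23 nt, the others have top positions of 18 to 20 nt. Of genes with a top position of such length, few held both motifs, with 0% at 18 nt and 8.42% at 20 nt. There were 4 bases before ATGATG in EIF2AK3 and ZMYM2 and 5 in MRPS16, and 2 bases after CTGA in all 3. The spacer between both motifs was 9 bases in EIF2AK3, 10 in MRPS16 and 15 in ZMYM2. Bases and ends thus had the same layout, while the spacer differed. Each sequence had 1 exact place in the genome. No further place was found within 2 mismatches for EIF2AK3 and ZMYM2, and for MRPS16 a single place with 2 mismatches held 1 read.

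The motifs were noted after the sequences had been seen, and the share over other genes is therefore given beside them. Of 607 protein-coding genes with at least 100 reads and a top position of 23 nt or longer, 187 (30.8%) held ATGATG before CTGA in the top position. These 187 genes have 173 distinct top positions, so that some positions are counted for more than 1 gene. Shorter top positions are no comparison for this, since both motifs with their spacer and outer bases take up most of such a length, and 1.46% of 7171 of them held both. In windows of the same length 100 nt upstream or 100 nt downstream of the top positions of the 607 genes, none held both motifs. The top position overlapped an annotated small RNA gene in 14 of the 187 genes. The layout seen in the 3 genes, with 4 or 5 bases before ATGATG and 2 bases after CTGA, was found in 170 of 187 (90.9%). Of 109 genes with at least 1000 reads, a peak of at least 50% and a top position of 23 nt or longer, 38 (34.9%) held both motifs, and EIF2AK3, MRPS16 and ZMYM2 are among them. Others are RPS3, RPL5, NCL, NOP58, GNL3 and RABGGTB, which are known hosts of C/D snoRNAs, and GON4L with 25001 reads. These genes were picked from the 38 after the values were seen, and the host status of the rest is not given here. Whether the top positions of the named hosts lie in their snoRNAs is not given either. A snoRNA origin of the reads in EIF2AK3, MRPS16 and ZMYM2 was not tested.

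**Figure D2:**
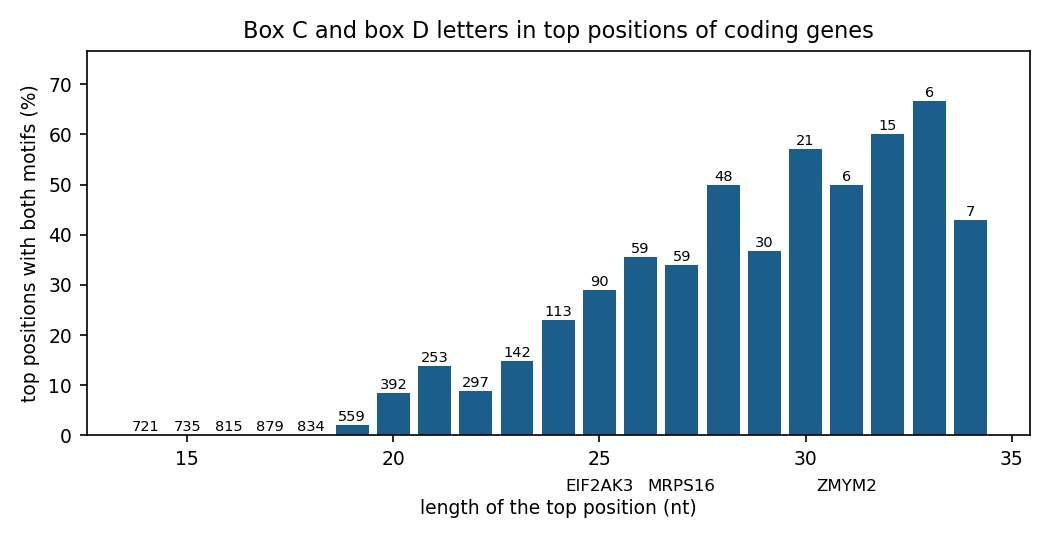
Share (%) of protein-coding genes with at least 100 reads whose top position holds ATGATG before CTGA, by the length of the top position (nt), with the number of genes above each bar and the lengths of EIF2AK3, MRPS16 and ZMYM2 below the axis. The share is 0% up to 18 nt, where both motifs with their outer bases can hardly be held, 8.42% at 20 nt and 57.1% at 30 nt.

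In a predicted fold of the position with 15 flanking bases on each side, bases of both flanks paired with each other 9 times in EIF2AK3 and in MRPS16 and 0 times in ZMYM2. Genes without the motifs gave numbers in the same range, with 9 in IRGQ, 6 in ELF4, 5 in KISS1R and in GYS1, 3 in NCKAP5 and 0 in CNOT1 and RAP1A. At least 4 such pairs were predicted at the top position of 51.3% of the 187 genes with both motifs and of 44.5% of the 420 genes without them. The median number of such pairs was 4 with both motifs and 1.5 without them.

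KISS1R, the receptor of the peptide kisspeptin that controls the onset of puberty, gave a different profile. Its top position was chr19:917575-917597 on the plus strand, 23 nt long, in the CDS of the first of 5 exons. The peak held 2246 of 2300 reads (97.7%, interval 97.0% to 98.2%). All peak reads but 1 shared the same 5′ end. The 3′ ends were spread over 10 positions, with 892 reads for the 23-nt form, 793 for 24 nt, 256 for 22 nt and 183 for 25 nt, and longer forms of up to 29 nt had fewer reads with each added base. A second position 36 nt further along in the same CDS held 38 reads, and the sequence had 1 exact place in the genome with none within 2 mismatches. With a GC content of 73.9% it held neither the C and D box letters nor a CCA end.

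CNOT1, the scaffold of the CCR4-NOT complex that removes poly(A) tails from mRNAs, held the most reads. Its top position was chr16:58589795-58589812 on the minus strand, 18 nt long, in the CDS of exon 20 of 49, and its 5′ end coincided with the first base of that exon. The peak held 77891 of 78951 reads (98.7%, interval 98.6% to 98.7%). All peak reads had the same 5′ end, and the 3′ ends were divided between the 18-nt form with 40418 reads and the 17-nt form with 37465. The 18-nt form had more recovered reads than any other top alignment of the 10 genes, and the next was the 25-nt form of EIF2AK3 with 2818. On the other strand, 36 reads overlapped the position.

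The CNOT1 sequence had 1 exact place in the genome and none with 1 mismatch, but 34 places with 2 mismatches. Of the 37954 reads listed at these, 37755 lay at a single place, chr1:112692772-112692789 on the plus strand, where no gene is annotated on that strand. Positions are counted from 1 at the 5′ end, with the base of CNOT1 first and the base of the other place last, and the differences are C1G and T18A. The 17-nt form, in which the places differ by C1G only, had 37465 reads at CNOT1 and 37743 at the place on chromosome 1. The 18-nt form had 40418 reads at CNOT1 and 11 at the other place. The shorter form was therefore listed at both places with nearly the same number, and the longer one almost entirely at CNOT1. The bases of the reads were not among the values used here, so that it was not tested which base the reads carry at position 1.

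IRGQ, a member of the immunity-related GTPase family, and RAP1A, a small GTPase of the RAS family, shared their top sequence. In IRGQ it was chr19:44096761-44096780 on the minus strand, in the CDS of the last of 3 exons, and a readthrough gene overlaps it on the same strand. In RAP1A it was chr1:112162397-112162416 on the plus strand, where it starts 14 nt upstream of the first exon of the canonical transcript. The peak held 1687 of 1721 reads in IRGQ (98.0%, interval 97.3% to 98.6%) and 1436 of 1770 in RAP1A (81.1%, interval 79.2% to 82.9%). These 20 bases occur exactly at these 2 places in the genome and have a GC content of 85.0%.

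Forms whose bases are identical at both genes were divided evenly between them. The 20-nt form had 585 reads at IRGQ and 635 at RAP1A, and the 18-nt form had 548 at IRGQ and 514 at RAP1A. Over all 8 shared forms there were 1409 reads at IRGQ and 1435 at RAP1A, a share of 49.5% for IRGQ (interval 47.7% to 51.4%) that includes 50%. Forms with 1 more base at the 5′ end differ between the genes, as the flanking capitals show, and had 271 reads at IRGQ and 1 at RAP1A. In RAP1A, none of the peak reads lay in a form with only 1 exact place, and in IRGQ 16.4% did. The forms that tell both places apart were thus listed almost only at IRGQ. The identical forms were listed at both places, although the methods of the study state that uniquely mapping reads were kept.

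GYS1 encodes the glycogen synthase of muscle, and ELF4 is a transcription factor of the ETS family. The top position of GYS1 was chr19:49474242-49474259 on the minus strand, 18 nt long, in the CDS of exon 13 of 16, and its peak held 1639 of 1686 reads (97.2%, interval 96.3% to 97.9%). That of ELF4 was chrX:129203324-129203341 on the minus strand, 18 nt long, in the CDS of exon 8 of 9, and its peak held 1390 of 2417 reads (57.5%, interval 55.5% to 59.5%). The form with 1 more base at the 5′ end followed the 18-nt form in both, with 373 reads against 1181 in GYS1 and 344 against 984 in ELF4. The most frequent 3′ end held 94.8% of the peak reads in GYS1 and 95.8% in ELF4.

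Both sequences end in CCA and differ from each other by G7C and T10C, with the base of GYS1 first. Of protein-coding genes with at least 1000 reads, 4.48% had a top position that ends in CCA, and of the 81 such genes with a top position of 18 nt 16.0% did. Each sequence had a second exact place, on chromosome 19 for GYS1 and on chromosome 4 for ELF4, with no gene on the same strand. Forms identical at both places were again divided evenly, with 1181 reads at GYS1 and 1207 at its second place (49.5% for GYS1, interval 47.5% to 51.5%), and 1027 at ELF4 and 997 at its second place (50.7% for ELF4, interval 48.6% to 52.9%). Forms extended at the 5′ end had 385 reads at GYS1 and 0 at its second place, and 361 at ELF4 and 3 at its second place.

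Places close to GYS1 and ELF4 held reads as well. Among the 11 places with 1 mismatch to GYS1, which held 17394 reads together, 5 with T8C had the most, with 4075 on chromosome 17 and between 3242 and 3522 at each of 4 places on chromosome 22. The 54 places with 1 mismatch to ELF4 held 2462 reads together. The bases 1 step from both GYS1 and ELF4, that is GYS1 with T10C, have no exact place in GRCh37. All 16 places that differ from them by a single substitution held reads, from 1000 to 3032 each with a median of 1271 and a sum of 25600, and GYS1 and ELF4 are among the 16. Around the other intermediate, GYS1 with G7C, 4 of 22 such places held at least 100 reads. SMARCC1 with 3032 reads, TMCC2 with 2983, TUBA1C with 1533, VPS13D with 1509 and ENOX1 with 1209 are genes at further places of the first set, and 8 places had no gene on the same strand. The first 15 bases, without the CCA, were searched in the same way for GYS1 (14 exact places), ELF4 (16), GYS1 with G7C (9) and GYS1 with T10C (15), together with letters of the internal promoter boxes of tRNA genes. None of the places of the first 3 sequences had these letters. At 1 of the 15 places of GYS1 with T10C, chr6:28763741-28763755 on the minus strand, GGTTCGA or GGTTCAA directly precedes them and TAGCTCA lies within 80 nt upstream. CCA does not follow there, and no read was listed. An annotation of tRNA genes was not used here, and the part of a tRNA in the reads at GYS1 and ELF4 was not tested.

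**Figure D3:**
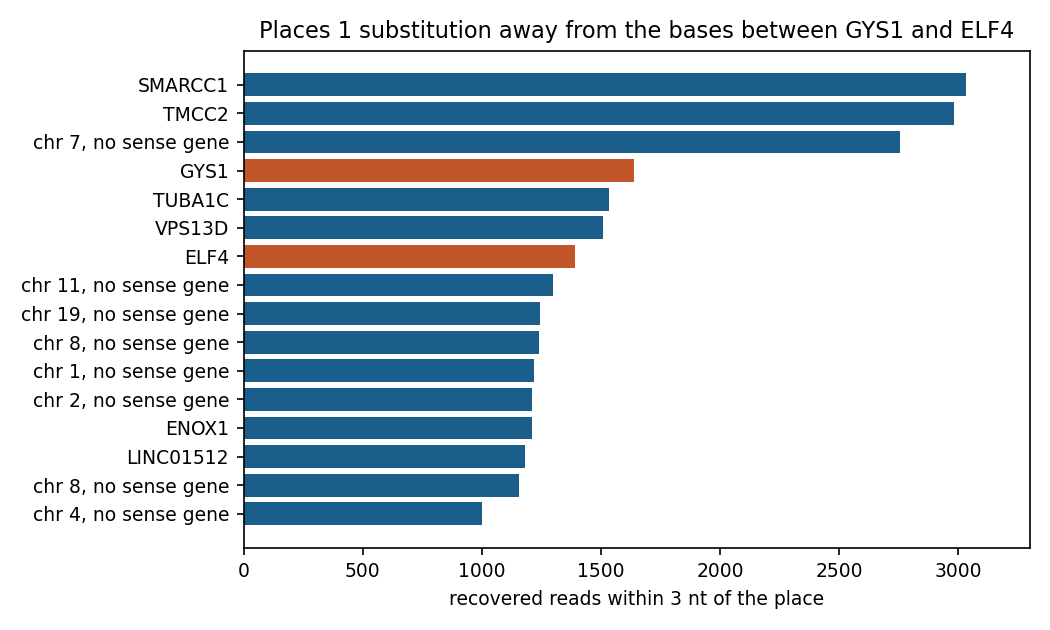
Recovered reads within 3 nt of each of the 16 places in the genome that differ by 1 substitution from GYS1 with T10C, named by the gene on the same strand or by the chromosome. GYS1 and ELF4 (orange) hold 1639 and 1390 reads and lie within the range of the other 14 places.

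ELF4 was the only one of the 10 genes with a second position of similar height. This was chrX:129220993-129221007, 15 nt long and intronic, with 915 reads or 37.9% of the gene. Its bases are printed in lower case.
ELF4 second position: gcttctgtagtgtag
They have 4 exact places in the genome, and apart from that in ELF4 these held 638 reads in CDH13, where MIR3182 is annotated, 609 in MAGI2 and 0 on chromosome 6. Places that differ only at the last base (G15A, G15C or G15T) held up to 209 reads. Among alignments of 18 nt or longer, the first position of ELF4 held 94.2% of the gene reads. In the other 9 genes the second position held at most 4.38% of the gene reads (NCKAP5).

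NCKAP5, which encodes an NCK-associated protein, had its top position at chr2:133880201-133880218 on the minus strand, 18 nt long, in intron 6 of the canonical transcript. The peak held 2349 of 3331 reads (70.5%, interval 68.9% to 72.0%), with 1505 reads in the 18-nt form and 664 in the 17-nt form. The same 18 bases occur in SGCZ on chromosome 8, where 7424 reads lay within 3 nt. Forms identical at both places had 2171 reads at NCKAP5 and 2402 at SGCZ, a share of 47.5% for NCKAP5 (interval 46.0% to 48.9%) that lies below 50%. Of these, the 18-nt form has 2 exact places and had 1505 reads at NCKAP5 and 1577 at SGCZ. The 17-nt form has 3 exact places and had 664 at NCKAP5 and 822 at SGCZ. Forms with 1 or more added bases at the 5′ end that differ between the places had 3 reads at NCKAP5 and 5004 at SGCZ. Those with added bases at the 3′ end that differ went the other way, with 175 reads at NCKAP5 and 41 at SGCZ. Among 33 places with 1 mismatch, PKM held 10879 reads and a place on chromosome 5 held 4300, both with T10A where the base of NCKAP5 is given first. Only 5.79% of the peak reads of NCKAP5 lay in forms with 1 exact place.

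In 5 of the 10 genes the top sequence had a second exact place, against 45.0% of protein-coding genes with at least 1000 reads and 54.2% of those with at least 100, and these were NCKAP5, GYS1, IRGQ, ELF4 and RAP1A. Of the 81 genes with at least 1000 reads and a top position of 18 nt, 29.6% had one. In CNOT1, KISS1R, ZMYM2 and MRPS16 all peak reads lay in forms with 1 exact place, and in EIF2AK3 all but 1 did. When only such forms were counted in the peak, it held at least 50% of the gene reads in these 5 genes and in none of the other 5, an alternative added after the data had been seen. Exact places were counted for the reference bases and not for the bases of the reads. The 17-nt form of CNOT1, 48.1% of its peak, had 37465 reads there and 37743 at the place on chromosome 1 that differs by C1G. A single exact place in the reference thus did not keep this form from being listed at both places. The 5 genes with a second place have top positions of 18 to 20 nt, and of the 5 without one, all but CNOT1 have top positions of 23 to 31 nt. A top position of 17 to 20 nt was found in 6 of the 10 genes, against 33.7% of genes with at least 1000 reads, and one of 18 nt in 4 of the 10, against 9.54%.

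Partners and relatives of the 10 genes were examined in the same way. Of 128 genes in 10 lists, such as CCR4-NOT subunits, kinases of the unfolded protein response, mitochondrial small ribosomal proteins and ETS factors, 61 had at least 100 reads. In 10 of these 61 (16.4%) the peak held at least 50% of the reads, against 28.2% of all protein-coding genes with as many reads, and the median peak share was 30.7%. In the CCR4-NOT list, the deadenylase CNOT6 had 73.2% of 880 reads at an intronic 18-nt position, and the antiproliferative genes BTG1 and TOB1 had 65.1% of 129 and 52.7% of 112 reads in the 5′ UTR. ATF4, the transcription factor translated under PERK signaling, had 53.6% of 125 reads in the 5′ UTR, and none of the other eIF2alpha and unfolded protein response genes with at least 100 reads reached 50%. In the LSD1-CoREST list, PHF21A had 66.1% of 892 reads and ZMYM1 57.9% of 197 reads at intronic positions.

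Among the mitochondrial ribosomal proteins, MRPS22 had 60.5% of 3793 reads at chr3:139067228-139067257, a 30-nt position in a noncoding exon that holds ATGATG before CTGA like that of MRPS16. It was the only one of the 10 list genes with such a peak that holds both motifs. The others have top positions of 14 to 19 nt, which are too short for a comparison. Both motifs were found in 0% of genes with a top position of 18 nt and in 1.97% at 19 nt. MRPS9 had 82.5% of 332 reads, MAP1LC3B, which coats autophagosomes, 89.4% of 521 reads and the ETS factor ERG 54.6% of 2774 reads, all at intronic positions of 14 to 19 nt. No gene of the kisspeptin, glycogen synthesis, RAP or NCK lists with at least 100 reads had a peak of 50%.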

How the data were processed

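Small RNA of 3 K562 batches was sequenced, and per the labels the authors aligned reads to GRCh37 (hg19) with Bowtie2 2.2.9. Their methods state that uniquely mapping reads were kept, and the pooled alignments were deposited with start, end, strand, a whole-number count of reads and an RPKM computed by the authors. The deposited count was a whole multiple of the number of alignments on the same strand within 3 nt of total end shift, itself included, for 1246133 of 1246133 alignments with such a neighbour, and was divided by it. RPKM rests on the undivided counts and a total of 54140681 reads, and is not used for levels here. All 47670688 recovered reads were used, with no batch column among the values used here.

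Sense alignments within the gene bounds of GENCODE release 44 on GRCh37 were counted. The top position is the alignment with most reads, and the peak all alignments that share a base with it. Top sequences were searched in GRCh37 on both strands with up to 2 mismatches, and folds were predicted with ViennaRNA 2.7.2. Places were counted as holding the reads of alignments within 3 nt. No test between groups was possible, as nothing is replicated. Named are all 10 genes, up to 3 genes per list with at least 100 reads and a peak of at least 50%, and genes at places of matching bases, and GON4L and the snoRNA hosts fall outside this rule. The 10 genes and the lists were chosen with earlier results of these data known, and the motif search and the single-place count were added after seeing sequences. In simulated data, 200 of 200 peak shares were recovered. The planted peaks stood far above single background reads, and no background read overlapped them, so that this checks the code only. The 1995 of 1995 read numbers recovered there were fixed by construction, since known numbers were multiplied and divided by the same neighbour number. They are no check of the division of the deposited counts. Python 3.11.15, numpy 2.4.6, pandas 2.3.3, numba 0.67.0, matplotlib 3.10.9 and samtools 1.23.1 were used.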

Additional observations from a re-analysis of the deposited data

Results flagged for a closer look

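Reads on the strand opposite to the gene entered none of the comparisons above. At the top position of CNOT1, 36 antisense reads were listed, above the 3 reads that a count of 0 allows, and they equal 0.0462% of the 77891 sense reads of the peak. At IRGQ 1 antisense read was listed, and at the other 8 top positions none was. The origin of these reads was not tested.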

How the results depend on the processing

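The number of genes whose peak holds at least 50% of the gene reads stayed at 10 with deposited counts, alignments within 3 nt, whole clusters, alignments of 18 nt or longer or of at least 2 reads, exon alignments, removal of annotated small RNAs and the alignment of highest RPKM as the top position. It was 5 with the exact alignment alone and 5 with peak reads in forms of 1 exact place only, both of which can only lower a share. The shares of single genes depended more on the processing. They left their Wilson intervals in 9 of 10 genes with deposited counts, in 9 with at least 2 reads and in 8 with 18 nt or longer. With whole clusters or the alignment of highest RPKM, all 10 stayed within. In NCKAP5 the share was 70.5%, and 91.8% with deposited counts. Single 5′ ends held at least 50% in 10 genes under all 4 alternatives, and single 3′ ends in 7 to 10. Exonic positions numbered 9 or 10 and annotated small RNAs 0 under each alternative, and second places were found for 5 genes with 0 or 1 mismatch and for 7 with up to 2. The top alignment was the same in 7 genes by deposited counts and in 8 by RPKM. Over all protein-coding genes, the share with such a peak was 28.2% at a minimum of 100 reads, 21.4% at 10 reads, 62.1% at 1000 reads, 37.5% for alignments of 18 nt or longer and 26.7% without annotated small RNAs.

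No paired analysis was possible because the authors pooled the batches. Batches could not be left out for the same reason, so that no spread between batches is known. With 1490 to 3532 reads in 9 of the genes, the Wilson interval of a peak share was widest in ELF4 (55.5% to 59.5%), and a place listed with 0 reads allows up to 3 reads. Reads carry no molecular identifiers, and the bases of reads were not used.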
